A study of Schizosaccharomyces pombe with 6 samples.

Results

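The genes described are 10 regulators of entry into mitosis in fission yeast (*Schizosaccharomyces pombe*), taken by name: the cyclin-dependent kinase gene cdc2, the cyclin genes cdc13, cig1 and cig2, the phosphatase gene cdc25, and the kinase genes wee1, mik1, cdr1, cdr2 and pom1. Each has 1 named probe set on the array, and together they are 10 of 2899 *S. pombe* genes with a named probe set. Total RNA of 3 wild-type and 3 isp7 null samples was hybridized to Affymetrix yeast arrays, 1 array per sample. Both strains were in mid-log growth at 30 degrees in Edinburgh minimal medium with ammonium chloride at 5 g/L. The null genotype is labelled isp7+ null. Other alleles, the mating type and the way isp7 was removed are not given in the sources used here. Isp7 is a relative of the 2-oxoglutarate- and iron-dependent dioxygenases, which the series' title places in TOR signalling, the pathway that couples growth to nutrients.

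In fission yeast the time of mitosis is set by cell size and by nutrients, through the kinase Cdc2 bound to a cyclin. Wee1 and Mik1 hold Cdc2 inactive by phosphorylating an inhibitory tyrosine, and Cdc25 removes that phosphate. Cdr1 and Cdr2 are kinases that restrain Wee1 from clusters on the middle of the cell cortex, and Pom1, a kinase concentrated at the cell tips, restrains Cdr2. The cyclins, cdc25, cdr1 and cdr2 are therefore grouped here as activators of Cdc2, and wee1, mik1 and pom1 as inhibitors.

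Values are log2 probe set values, and changes are isp7 null minus wild type. A gene is said to have risen or fallen when it passed limma's adjusted p at 0.05, taken over all 2917 *S. pombe* probe sets, and changed by at least 1.5-fold. Errors are SD over 3 arrays for levels and SE of the limma fit for changes. The background of the array was set at 7.08, percentile 95 of the means of the *S. cerevisiae* probe sets that the array also carries, and all 10 genes had means above it. The probe set of CDC28, the *S. cerevisiae* counterpart of cdc2, read between 5.29 and 5.53 on the 6 arrays. The transcript of isp7 fell from 11.62 ± 0.073 to 6.19 ± 0.18 (SD, n = 3), below the background, as the labels give it.

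Of the 10 regulators, cig2 and mik1 fell and none rose. They stand on opposite sides of the kinase: cig2 encodes a cyclin that activates Cdc2 and mik1 a kinase that inhibits it. Over all *S. pombe* probe sets 8.6% were called, 4.22% as rises and 4.39% as falls, and the difference from 2 of 10 was not tested. The other 8 changed by less than 1.5-fold. With the adjusted p alone 5 of 10 passed, 3 lower and 2 higher, against 70.7% of all probe sets. The groups of arrays did not overlap for 5 of 10, against 76.1%. The median size of the change, without its sign, was 0.11 for the 10 and 0.20 for all probe sets, and with its sign -0.04 and -0.05.

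**Figure D1:**
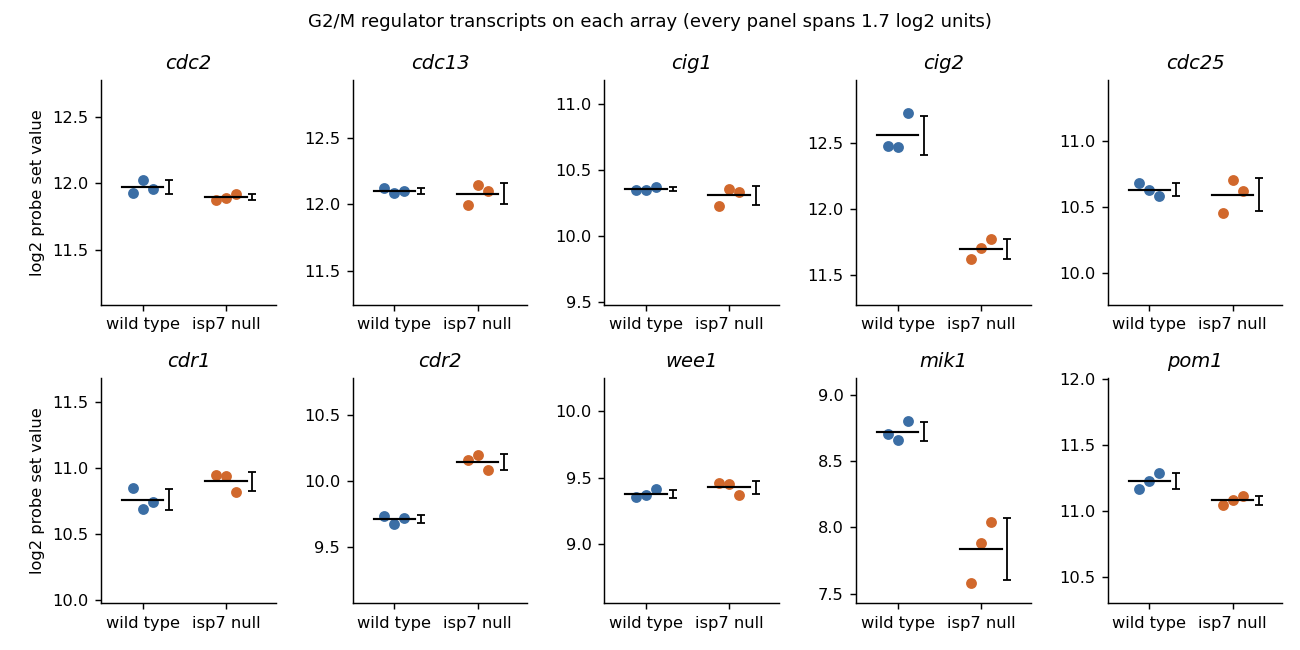
Log2 probe set value (vertical axis) of each of the 10 regulators on the 3 wild-type arrays (blue) and the 3 isp7 null arrays (orange). Horizontal bars are means, error bars are SD (n = 3), and every panel spans 1.7 log2 units, so distances can be compared between panels. The groups stand wide apart for cig2 (12.56 against 11.70) and mik1 (8.72 against 7.83) and more narrowly for cdr2 (9.71 against 10.14).

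Among the cyclins, cig2 (SPAPB2B4.03) encodes the main cyclin of the onset of S phase, and its transcript is known to peak between G1 and S. It read 12.48, 12.47 and 12.73 on the wild-type arrays and 11.63, 11.70 and 11.77 on the null arrays. Every null array was below every wild-type array. The fall was 1.81-fold, -0.86 on the log2 scale (SE 0.076, limma adjusted p = 5.88e-05), and 0.994% of all *S. pombe* probe sets had a lower change. Fewer cells in the phase that expresses a gene and less RNA in each of those cells cannot be told apart in RNA from whole cultures.

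The other cyclin genes moved little. The gene cdc13 (SPBC582.03) encodes the B-type cyclin required for mitosis. It read 12.13, 12.08 and 12.10 in wild type and 11.997, 12.15 and 12.10 in the null. The groups overlapped, with a log2 change of -0.02 (95% interval -0.12 to 0.08, limma adjusted p = 0.660). The B-type cyclin gene cig1 (SPCC4E9.02) read 10.34, 10.35 and 10.37 in wild type and 10.22, 10.36 and 10.33 in the null, again with overlap. Its change was -0.05 (95% interval -0.14 to 0.04, limma adjusted p = 0.286). The kinase gene cdc2 (SPBC11B10.09) read 11.93, 12.03 and 11.96 in wild type and 11.88, 11.89 and 11.92 in the null. All its null arrays were below the wild-type arrays, yet the change of -0.07 (95% interval -0.15 to 0.01) did not pass (limma adjusted p = 0.0960). For these genes the intervals exclude a change of 1.5-fold in either direction.

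Of the kinases that phosphorylate the inhibitory tyrosine of Cdc2, mik1 fell and wee1 did not pass the test. The transcript of mik1 (SPBC660.14) read 8.71, 8.66 and 8.80 in wild type and 7.58, 7.88 and 8.04 in the null. No null array reached a wild-type array, and the null arrays were more spread (SD 0.23) than those of any other regulator in either group. The fall was 1.85-fold, -0.89 on the log2 scale (SE 0.11, limma adjusted p = 0.000293), with 0.823% of all probe sets at a lower change. Its null mean was the nearest of the 10 to the background, at 0.75 above it on the log2 scale, where RMA compresses differences. The transcript of wee1 (SPCC18B5.03) read 9.35, 9.37 and 9.41 in wild type and 9.46, 9.45 and 9.37 in the null. These groups overlapped, and the change was 0.05 (95% interval -0.03 to 0.13, limma adjusted p = 0.226).

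The phosphatase gene cdc25 (SPAC24H6.05), whose product opposes Wee1 and Mik1, read 10.68, 10.63 and 10.59 in wild type and 10.46, 10.71 and 10.62 in the null. The null arrays lay on both sides of the wild-type arrays, and the change was -0.04 (95% interval -0.19 to 0.11, limma adjusted p = 0.610).

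The kinase genes upstream of Wee1 changed by small amounts, with groups of arrays that did not overlap for cdr2 and pom1 but did for cdr1. The cdr2 transcript (SPAC57A10.02) read 9.73, 9.68 and 9.72 in wild type and 10.16, 10.19 and 10.08 in the null. All null arrays were above all wild-type arrays, a 1.35-fold difference with 0.43 on the log2 scale (SE 0.037, limma adjusted p = 5.12e-05). The related kinase gene cdr1 (SPAC644.06C, also called nim1) read 10.85, 10.69 and 10.74 in wild type and 10.95, 10.94 and 10.82 in the null. The lowest null array was below the highest wild-type array, and the change of 0.14 (SE 0.053) passed narrowly (limma adjusted p = 0.0480). Its adjusted p rose to between 0.116 and 0.143 when null array 1, null array 2, wild-type array 2 or wild-type array 3 was left out, and to 0.118 both without variance moderation and with all probe sets of the array in the fit. The pom1 transcript (SPAC2F7.03C) read 11.17, 11.23 and 11.29 in wild type and 11.05, 11.08 and 11.11 in the null. Its groups did not overlap, with a change of -0.15 (SE 0.038, limma adjusted p = 0.0111).

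Of the 6 activators 1 fell, 2 were higher by the adjusted p alone and 3 did not pass. Of the 3 inhibitors 1 fell, 1 was lower by the adjusted p alone and 1 did not pass. Of all *S. pombe* probe sets 29.3% were higher and 41.3% lower by the adjusted p. The median change was -0.03 for the activators and -0.15 for the inhibitors, against -0.05 for all *S. pombe* probe sets. Both medians turned sign with the linear trend on gene length taken out, to 0.12 for the activators and 0.04 for the inhibitors. That of the activators was also above 0 without null array 1 (0.026), after median centring (0.019) and after repeated quantile normalization (0.027). After the gene length correction pom1 stood at 0.04 (limma adjusted p = 0.402), and cdr1 lost the adjusted p under 6 of 16 alternatives.

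Opposed regulators (cdc25 with wee1 or mik1) and parallel ones (wee1 with mik1, cdc13 with cig2) were then compared within each array. The measure was the difference between the log2 values of a pair of probe sets. Since probe sets differ in brightness, these differences have meaning between strains and not as ratios of transcripts. For cdc25 over wee1 the difference was 1.33, 1.26 and 1.18 in wild type and 1.00, 1.25 and 1.25 in the null. The groups overlapped, and the change of -0.09 did not pass the exact two-sided permutation test (p = 0.4, adjusted p = 0.4 over 4 ratios). For cdc25 over mik1 it rose from a mean of 1.91 ± 0.11 to 2.76 ± 0.16 (SD, n = 3), a change of 0.85. All 3 null arrays were above all 3 wild-type arrays.

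The difference between wee1 and mik1 was 0.64, 0.71 and 0.61 in wild type and 1.88, 1.57 and 1.33 in the null, a change of 0.94. That between cdc13 and cig2 went from -0.45 ± 0.15 to 0.38 ± 0.060 (SD, n = 3), a change of 0.84. In both pairs the groups did not overlap. The exact two-sided permutation test gave p = 0.1 for each of the 3 ratios that hold cig2 or mik1, the smallest value that 3 arrays against 3 allow, and an adjusted p of 0.133. These ratios carry the falls of cig2 and mik1 already given and are not separate results.

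**Figure D2:**
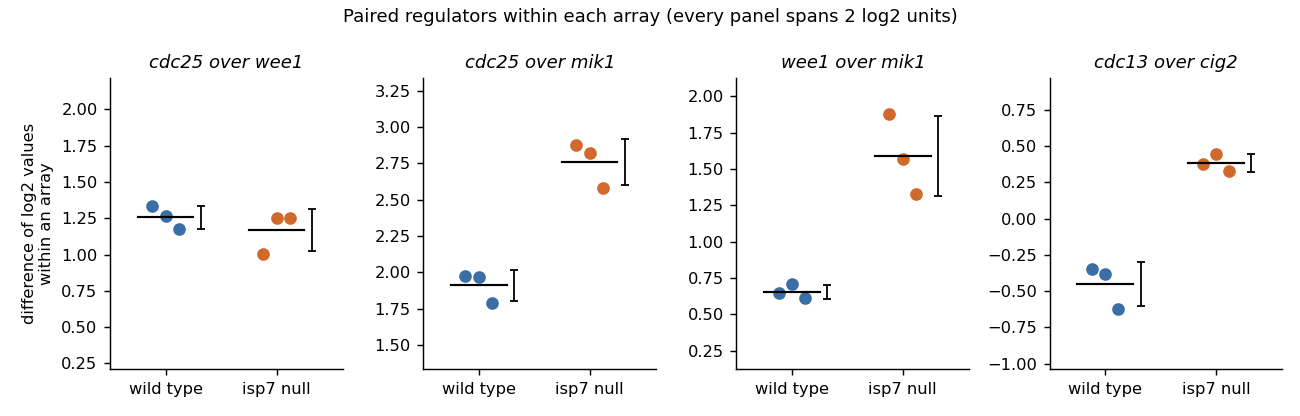
Difference between the log2 values of 2 regulators on the same array (vertical axis) in wild type (blue) and isp7 null (orange). Horizontal bars are means and error bars are SD (n = 3). The groups overlap for cdc25 over wee1 and stand 0.84 to 0.94 log2 units apart for the other 3 ratios.

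Null array 1 was the lowest of all 6 arrays for 7 of the 10 regulators: cdc2, cdc13, cig1, cig2, cdc25, mik1 and pom1. It was the lowest for 31.5% of all *S. pombe* probe sets. Without it the change of mik1 was -0.76 and that of cig2 -0.82, and the changes of cdc13 and cdc25 turned to 0.02 and 0.03. Over all *S. pombe* probe sets arrays of the same strain correlated at 0.998 to 0.999 and arrays of different strains at 0.973 to 0.978. No label says whether the arrays of a strain stand for separate cultures, so the spread behind each p-value may be technical.

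Gene length moved with the changes. Across the 2917 *S. pombe* probe sets, which share the same 6 arrays, the Spearman correlation between log2 change and annotated gene length was -0.367, longer genes being lower in the null. All 10 regulators are longer than the median gene of 1876 bases, with lengths from 1888 bases for cdc2 to 4381 bases for cig2. With the linear trend on log2 length taken out of each array, cig2 stood at -0.64 (limma adjusted p = 0.000145) and mik1 at -0.77 (limma adjusted p = 0.000351), and both still passed 1.5-fold. The value of cdr2 went to 0.58, short of 1.5-fold, and that of cdr1 to 0.27. The change of pom1 turned to 0.04 (limma adjusted p = 0.402). Those of wee1 (0.25, limma adjusted p = 0.000964) and cdc13 (0.12, limma adjusted p = 0.0133) became higher in the null by the adjusted p alone. The part of gene length in the uncorrected changes was not tested further.

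**Figure D3:**
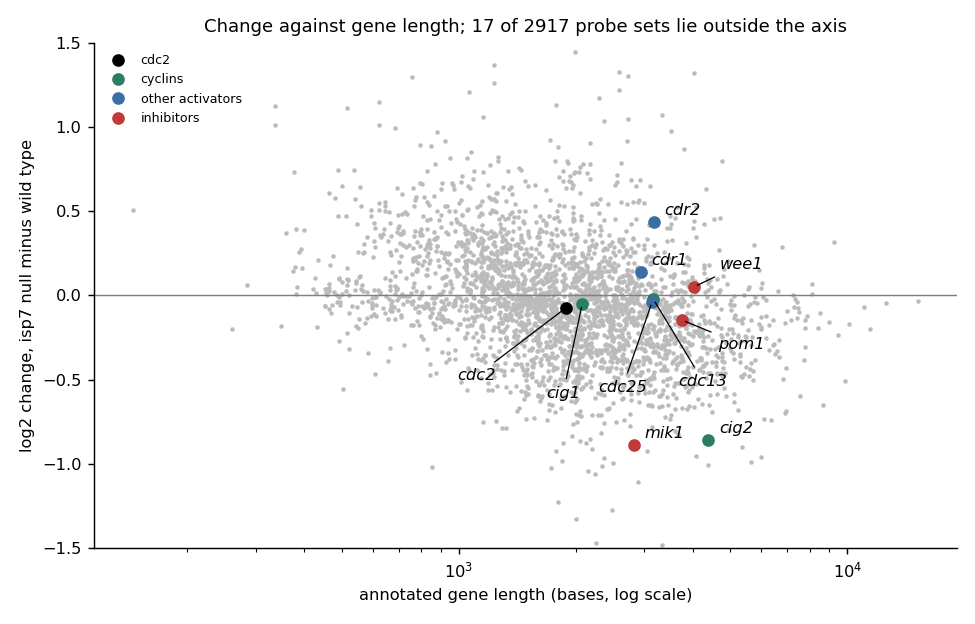
Log2 change (vertical axis, isp7 null minus wild type) against annotated gene length in bases (horizontal log axis) for all *S. pombe* probe sets in grey, with 17 of 2917 outside the vertical axis, and the 10 regulators in colour by role. Longer genes tend to lie lower, and mik1 (-0.89) and cig2 (-0.86) lie at the lower edge of the grey points while cdr2 (0.43) lies above 0.

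**Figure D4:**
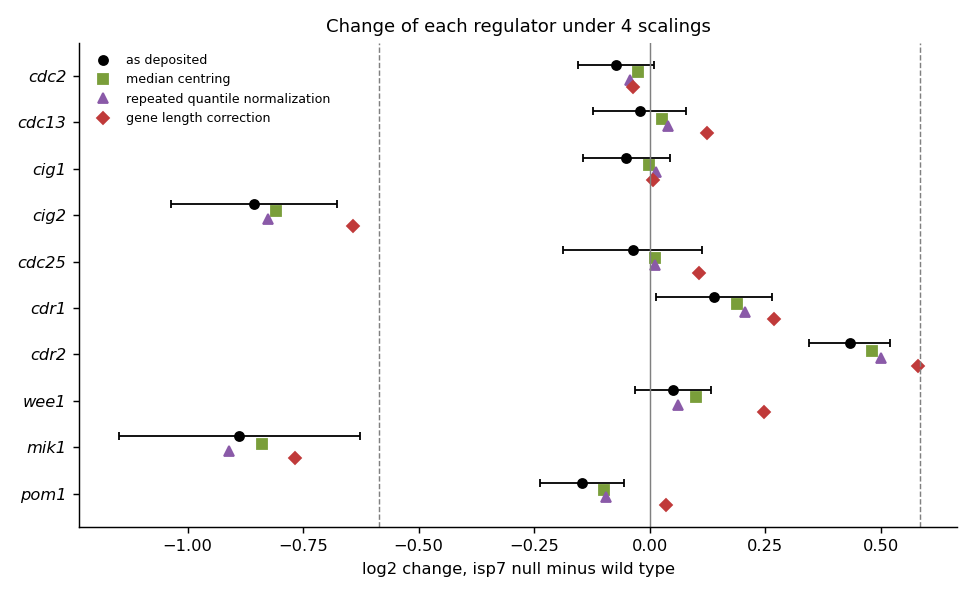
Log2 change of each regulator (horizontal axis) as deposited, with its 95% interval from limma, and under median centring, repeated quantile normalization and the gene length correction. Dashed lines mark 1.5-fold. The falls of cig2 and mik1 stay past 1.5-fold under each of the 4 scalings, and the small changes of cdc13, cig1, cdc25 and pom1 cross 0 under at least one of them.

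The wider network around these genes was read in 8 lists with 83 measured genes besides the 10, of 92 different genes listed, the members that recur in them included. Of the 83, 3 rose and 1 fell, 4.82% against the 8.6% of all probe sets, and their median change was -0.09. The adjusted p alone was passed by 19 genes that were higher and 38 that were lower, where 29.3% and 41.3% of all probe sets were. The genes past 1.5-fold were rep1, spo12 and apc10, which rose, and tea4, which fell. In some alternatives another gene fell as well: yox1, at -0.67, after a gene length correction, and chs2, at -0.61 to -0.59, when either of wild-type arrays 1 and 2, or of null arrays 2 and 3, was left out.

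Both regulators that fell are targets of MBF, the transcription factor of the G1-to-S transition, built on Cdc10 with Res1 and Res2. Of 18 measured genes in the list of MBF and its targets 1 rose and 2 fell, and the falls were cig2 and mik1 themselves. Over all probe sets 4.22% rose and 4.39% fell, and 29.3% were higher and 41.3% lower by the adjusted p alone. Of the 9 other genes counted here as targets, with the factor and its regulators set apart, none rose or fell. By the adjusted p alone 6 of them were lower and 1 was higher, and their median was -0.24. After the gene length correction, where 38.1% of all probe sets were lower and 33.7% higher, 3 of these targets were lower and 1 was higher. Their median was then -0.09. As deposited, the 9 targets included cdc18 (-0.24, SE 0.084, limma adjusted p = 0.0335), which licenses replication origins. They also held cdc22 (-0.33, SE 0.077, limma adjusted p = 0.00652), which encodes the large subunit of ribonucleotide reductase, and cdt2 (0.40, SE 0.069). With the gene length correction cdc18 stood at -0.19 (limma adjusted p = 0.0509), cdc22 at -0.19 (limma adjusted p = 0.0347) and cdt2 at 0.44. The value of cdc18 lost the adjusted p under 6 of 16 alternatives. Of the 7 genes of the factor and its regulators 2 were higher and 3 lower by the adjusted p. The gene cdc10 was at 0.07 (limma adjusted p = 0.0954) and passed the adjusted p under 4 of 16 alternatives, with 0.21 after the gene length correction (limma adjusted p = 0.000623). The gene res2 was at 0.34 (SE 0.071, limma adjusted p = 0.00435), from a wild-type mean of 7.40 near the background. The lower ones were rep2 at -0.39 (SE 0.036, limma adjusted p = 6.71e-05), which encodes an activating subunit, and the genes of the MBF repressors, yox1 at -0.47 (SE 0.078, limma adjusted p = 0.00135) and nrm1 at -0.26 (SE 0.084, limma adjusted p = 0.0275). The value of nrm1 lost the adjusted p under 8 of 16 alternatives. The activator gene rep1, which acts with MBF on entry into meiosis, rose from 8.84 ± 0.10 to 9.56 ± 0.057 (SD, n = 3), 0.73 on the log2 scale (SE 0.056, limma adjusted p = 3.45e-05).

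Genes of the cell tips and of the cortical nodes, where the size-control kinases sit, were next. Of 11 measured 1 fell, 7 were lower by the adjusted p, the fall included, and none were higher, with a median of -0.22. Over all probe sets 41.3% were lower and 29.3% higher. After the gene length correction 3 were higher and 4 lower, where 33.7% and 38.1% of all probe sets were, and the median was -0.02. The fall was that of tea4, which encodes a landmark protein at the cell tips that brings Pom1 there. It went from 10.52 ± 0.045 to 9.87 ± 0.052 (SD, n = 3), -0.65 on the log2 scale (SE 0.038, limma adjusted p = 1.27e-05), and stood at -0.51 after the gene length correction, short of 1.5-fold. The kinase gene ssp1, whose product acts on Cdr2, was at -0.45 (SE 0.072, limma adjusted p = 0.00109) and at -0.26 after the gene length correction (limma adjusted p = 0.00722). Of the genes for proteins that share the nodes with Cdr2, blt1 was at -0.22 (limma adjusted p = 0.00157) and mid1 at -0.05 (limma adjusted p = 0.192), and blt1 stood at -0.02 after the gene length correction (limma adjusted p = 0.699).

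Other partners of Cdc2 changed by less than 1.5-fold. Of 8 measured, 3 were higher and 3 lower by the adjusted p alone. For this list and the next 3, the shares over all probe sets were 29.3% higher and 41.3% lower. The G1 cyclin gene puc1 was at 0.26 (SE 0.066, limma adjusted p = 0.0107, which became 0.0533 without variance moderation), the gene of the Cdc2 inhibitor Rum1 at -0.08 (limma adjusted p = 0.203) and pyp3, whose phosphatase acts alongside Cdc25, at 0.02 (limma adjusted p = 0.511). In the list of the polo kinase and mitotic entry at the spindle pole body, 5 of 7 were lower by the adjusted p and none were higher, with plo1, the polo kinase gene that promotes entry into mitosis, at -0.01 (limma adjusted p = 0.930). The branch of phosphatase PP2A and the Greatwall kinases, which links TOR to mitosis, had 3 of 8 lower and none higher. Of 11 checkpoint kinase and related genes 5 were lower and 3 higher, and none of these 3 lists held a rise or a fall. The lower checkpoint genes include chk1, with means of 7.13 in wild type and 6.82 in the null, near and below the background of 7.08. After the gene length correction 3 of the polo list were lower and none higher, 3 of the PP2A list lower and 2 higher, and 1 checkpoint gene lower and 4 higher, beside 38.1% lower and 33.7% higher over all probe sets. With median centring 2 of the polo list were lower, where 35.6% of all probe sets were.

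The next list was that of cyclin destruction. Of 14 measured genes of the anaphase-promoting complex and its substrates and regulators 8 were higher and 2 lower by the adjusted p, with a median of 0.22, and 10 and 1 after the gene length correction, with a median of 0.26. Over all probe sets 29.3% were higher and 41.3% lower, and 33.7% and 38.1% after that correction. Its subunit gene apc10 rose from 10.12 ± 0.033 to 10.79 ± 0.045 (SD, n = 3), 0.67 on the log2 scale (SE 0.034, limma adjusted p = 8.35e-06), which became 0.55, short of 1.5-fold, after the gene length correction. In the list of genes expressed in the mitotic wave spo12 rose from 11.77 ± 0.069 to 12.64 ± 0.16 (SD, n = 3), 0.87 on the log2 scale (SE 0.079, limma adjusted p = 6.64e-05), 2 of 14 were higher and 6 lower by the adjusted p, and the median was -0.14. With median centring 4 were lower, where 35.6% of all probe sets were, and the median was -0.09. After the gene length correction 3 were lower and the median was -0.03, with 2 higher under both settings. This list holds cdc25 as well, and several of its genes stand in other lists.

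**Figure D5:**
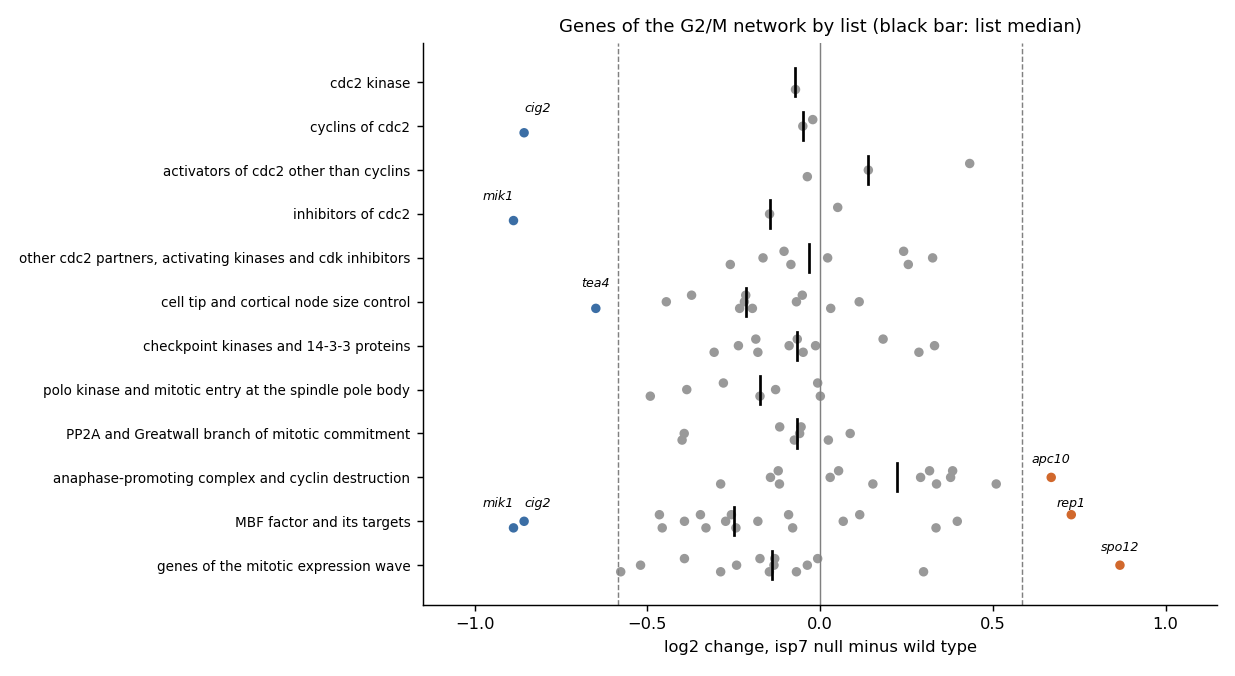
Log2 change (horizontal axis, isp7 null minus wild type) of each measured gene in the 12 lists, with rises in orange, falls in blue and the rest in grey. Black bars are list medians and dashed lines mark 1.5-fold. The named points past the dashed lines are cig2, mik1, tea4, apc10, rep1 and spo12, and a gene in several lists is drawn in each.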

How the data were processed

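The values are log2 probe set values that the authors deposited; the submitters' processing notes name RMA and Partek 6.5. RMA corrects background, equalizes the distributions of the arrays and summarizes probes, so a change in total RNA per cell is removed. All 6 columns were used. Names came from the platform's annotation, updated by gene ID through RefSeq assembly ASM294v3, which gave 2917 *S. pombe* probe sets; that table also gave gene lengths.

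Changes were fitted with limma 3.58.1 in R 4.3.3 (lmFit, eBayes), two-sided, with Benjamini-Hochberg adjustment. The series' design text gives the thresholds. The code was tested on simulated data. Named are the 10 regulators, isp7 and every list gene that rose or fell. Also named, whatever their values, are cdc10, res2, cdc18, cdc22, plo1, pyp3, ssp1, tea4, blt1, mid1, rum1 and puc1. The genes cdt2, rep2, yox1, nrm1, chs2, pas1, bfr1, ssb1, grx5 and chk1 were named after their values were seen. Members and lists were chosen with earlier results of these data known. Older gene names were read through the synonyms of the RefSeq table, and list genes that no probe set names were left out. Precision is limited by the number of arrays, which have no depth. Alternatives are listed in the closing section.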

Additional observations from a re-analysis of the deposited data

How the results depend on the processing

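The fit was repeated with a prior that follows intensity, a robust prior, unmoderated variances, the replicate block, repeated quantile normalization, median centring, a gene length correction, a background filter, all probe sets, averaging per gene, and leaving out each array. The falls of cig2 (-0.90 to -0.64) and mik1 (-0.99 to -0.76) were called in all 16, and the count of regulators called stayed at 2. Between 4 and 6 of the 10 passed the adjusted p alone. Over all *S. pombe* probe sets 123 rose and 128 fell, and with median centring 154 rose and 94 fell. Small changes turned sign. With repeated quantile normalization cdc13 was at 0.040, cig1 at 0.014, cdc25 at 0.012 and plo1 at 0.049. With median centring cdc13 was at 0.027, cdc25 at 0.011 and plo1 at 0.041. After the gene length correction cdc13 was at 0.12, cig1 at 0.0062, cdc25 at 0.11, pom1 at 0.036, plo1 at 0.091, mid1 at 0.091 and grx5 at -0.0070, and the medians of activators and inhibitors were 0.12 and 0.036. With 1 array left out cdc13 ranged from -0.055 to 0.021, cdc25 from -0.092 to 0.031 and plo1 from -0.072 to 0.072. The cause was not tested. Same-numbered arrays deviated with correlations of -0.12, -0.25 and 0.11, and 2 of 6 arrays correlated best with their own number. With 3 arrays per strain this cannot tell whether same-numbered arrays were handled together, and no label says so. With the replicate block 252 probe sets were called against 251, and the count of regulators called was 2 in both fits. Tests of the ratios with the block cannot go below p = 0.25 (exact). Values near the background of 7.08, such as those of mik1, limit the size of a fall that can be seen.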

Other observations

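The nearest protein-coding genes on each side of the 10 regulators were read from the same fit, a description added after the data had been seen. Of 20 neighbours 13 have a named probe set, of which 2 fell and none rose, against 4.39% falls and 4.22% rises over all probe sets. The first, pas1, lies next to cdr2 and encodes a cyclin known to stimulate MBF. It read 13.48, 13.39 and 13.41 in wild type and 12.53, 12.53 and 12.44 in the null, so that its groups stood far apart (log2 change -0.92, SE 0.040, limma adjusted p = 5.39e-06), while cdr2 beside it was higher. The second, bfr1, lies next to wee1 and encodes a transporter of the ABC family that gives resistance to brefeldin A. It went from 14.17 ± 0.33 to 13.44 ± 0.19 (SD, n = 3), -0.74 on the log2 scale (SE 0.17, limma adjusted p = 0.00607), and stood at -0.45, short of 1.5-fold, after the gene length correction. The neighbour of mik1 that was measured, ssb1, itself a target of MBF, was at -0.27 (SE 0.047, limma adjusted p = 0.00154), and that of cig2, the glutaredoxin gene grx5, was at 0.04 (limma adjusted p = 0.371).

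In the current annotation 9 of the 10 regulators overlap a non-coding gene, wee1 being the exception. A protein-coding gene overlaps or touches 3 of them: cig2 with pmc1, mik1 with ssb1 and cdc13 with dsh1. Overlaps were not counted over all *S. pombe* genes, so these counts cannot be called high or low. The tables used here do not give the position of the probes.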
